A study of Mus musculus with 24 samples.

Results

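The 8 genes described here encode enzymes that make asparagine (Asns), serine (Phgdh, Psat1 and Psph), glycine and mitochondrial one-carbon units (Shmt2 and Mthfd2), and proline (Aldh18a1 and Pycr1). They were taken by symbol from a list of named enzymes, with no threshold on a measured value, and are 8 of the 38924 genes in the files. The list was chosen with earlier results of these data known. Counts of members set beside shares of all genes are therefore only a description. All 8 were found, and all 8 passed the filter on low counts that left 17409 genes for testing. RNA had been sequenced from whole spinal cord of 24 mice aged 8 weeks, 13 male and 11 female, by poly(A) selection with stranded kits. The mice carried 1 GarsP278KY allele over a wild-type Gars allele ("Gars mutant") or wild-type Gars only, together with 1 of 3 genotypes at Gcn2, which is listed as Eif2ak4: both alleles intact (+/+), 1 lost (+/-) or both lost (-/-). With Gcn2+/+ there were 4 Gars mutant and 4 Gars wild-type libraries, with Gcn2+/- 4 and 4, and with Gcn2-/- 5 and 3. All groups are labelled with the same mixed strain background, B6J;CASTxB6.129. The labels number each mouse and give its sex, but do not say in words that each library is a separate animal, so p-values measure the spread between these libraries.

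Gars encodes glycyl-tRNA synthetase, and dominant mutations in it cause a peripheral neuropathy. Gcn2 is a kinase that responds to uncharged tRNA and stalled ribosomes by phosphorylating eIF2 alpha, which raises translation of the transcription factor ATF4. Genes for amino acid synthesis and for the mitochondrial folate cycle are well-known ATF4 targets, and Asns is the classic one. The cross therefore asks whether mutant Gars changes such genes in the spinal cord and whether a change depends on Gcn2. In nervous tissue, serine synthesis is known mainly from astrocytes and other glia, which supply serine and glycine to neurons.

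Library totals ran from 19.7 to 32.4 M counts, and the 8 genes had between 26 and 5607 expected counts in a library. Eif2ak4, read as a check of the labels, averaged 32.0 ± 1.01, 22.4 ± 1.41 and 13.0 ± 1.28 CPM in Gars mutants with Gcn2+/+, Gcn2+/- and Gcn2-/-, and 31.2 ± 2.39, 22.7 ± 0.895 and 13.6 ± 1.91 CPM in the corresponding Gars wild-type mice (SD, n = 4, 4 and 5, and n = 4, 4 and 3). CPM are counts scaled to one common library size after TMM adjustment. Markers of spinal cord cells were detected throughout, the 8 oligodendrocyte markers at 22100 to 35000 summed CPM and the 6 motor neuron markers at 113 or more in every library. The motor neuron markers moved with mutant Gars. They summed to 113 to 132 CPM in Gcn2+/+ Gars mutants, against 188 to 229 in Gcn2+/+ Gars wild-type mice, and edgeR called 4 of 6 lower (Chat, Chodl, Prph and Slc5a7, median log2 fold change -0.63). With Gcn2+/- they summed to 114 to 154 CPM in Gars mutants, against 167 to 206 in wild-type mice, with 3 of 6 called lower. With Gcn2-/- they summed to 156 to 184 CPM in Gars mutants, against 171 to 196 in wild-type mice, with none of 6 called or at an unadjusted p below 0.05. Their part in the enzyme results was not tested. Of the 24 libraries, 5 held far more RNA of 12 Schwann cell markers than the other 19 (mean log2 CPM 2.92 to 5.35, against 0.14 to 1.63). They are libraries 2 and 4 of the Gcn2+/+ Gars mutants, library 4 of the Gcn2+/- Gars mutants, and libraries 1 and 3 of the Gcn2+/- Gars wild-type mice. Values without these 5 libraries are given after each set of results. In whole tissue, fewer cells of a type and less RNA per cell cannot be told apart.

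The promoters of the members named most often below are shown because ATF4 binds, with a partner, to an element whose core is TGATGNAA. RefSeq promoters of GRCm38.p6 (250 bases before to 50 after the gene's start) were matched for all 8 genes, with 2 entries for Psat1. The core was searched on both strands. It was found in 2 of these 9 sequences, those of Asns (position -23 from the first transcribed base) and Pycr1 (position -103), and in 4.0% of all 32851 promoters in the table. Shmt2 is shown as the member called in the test below, and held no match in this window. Each sequence runs 5′ to 3′ along the gene, which lies on the minus strand, and capitals mark the core.
Asns, chr6:7693160-7693459: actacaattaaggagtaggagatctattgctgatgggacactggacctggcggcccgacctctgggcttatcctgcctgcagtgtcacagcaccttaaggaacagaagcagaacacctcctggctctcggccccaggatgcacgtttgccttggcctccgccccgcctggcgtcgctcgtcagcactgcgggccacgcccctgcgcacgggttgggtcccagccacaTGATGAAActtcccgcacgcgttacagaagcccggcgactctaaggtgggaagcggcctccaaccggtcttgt
Pycr1, chr11:120643699-120643998: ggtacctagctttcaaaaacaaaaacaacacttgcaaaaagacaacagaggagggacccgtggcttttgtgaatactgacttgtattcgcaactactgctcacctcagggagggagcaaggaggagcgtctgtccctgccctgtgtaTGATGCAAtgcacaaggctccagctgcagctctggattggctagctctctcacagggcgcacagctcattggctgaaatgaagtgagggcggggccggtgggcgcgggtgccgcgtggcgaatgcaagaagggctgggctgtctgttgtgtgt
Shmt2, chr10:127522395-127522694: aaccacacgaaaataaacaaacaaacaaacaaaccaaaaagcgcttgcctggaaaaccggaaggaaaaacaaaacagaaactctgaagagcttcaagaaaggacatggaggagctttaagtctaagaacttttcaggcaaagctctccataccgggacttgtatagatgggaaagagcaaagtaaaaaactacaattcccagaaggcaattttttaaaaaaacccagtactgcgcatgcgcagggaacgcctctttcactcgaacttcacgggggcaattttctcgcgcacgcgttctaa

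Per unit of transcript length the 8 genes differed widely in level. On the authors' TPM scale, Psat1 averaged 131 ± 14.2 in Gcn2+/+ Gars mutants and 131 ± 14.5 in Gcn2+/+ Gars wild-type mice (SD, n = 4 each). Asns averaged 102 ± 6.36 and 81.8 ± 4.67 TPM in these groups, and Phgdh 110 ± 10.3 and 71.3 ± 7.02 TPM. Shmt2, Mthfd2, Psph and Aldh18a1 formed a lower tier, with group means between 14.3 and 24 TPM over all 6 groups. Pycr1 was lowest, at 4.32 ± 0.263 TPM in Gcn2+/+ Gars mutants and 2.25 ± 0.603 TPM in Gcn2+/+ Gars wild-type mice. Thus the first 2 serine enzymes and Asns stood far above the mitochondrial folate and proline enzymes on this per-length scale.

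**Figure D1:**
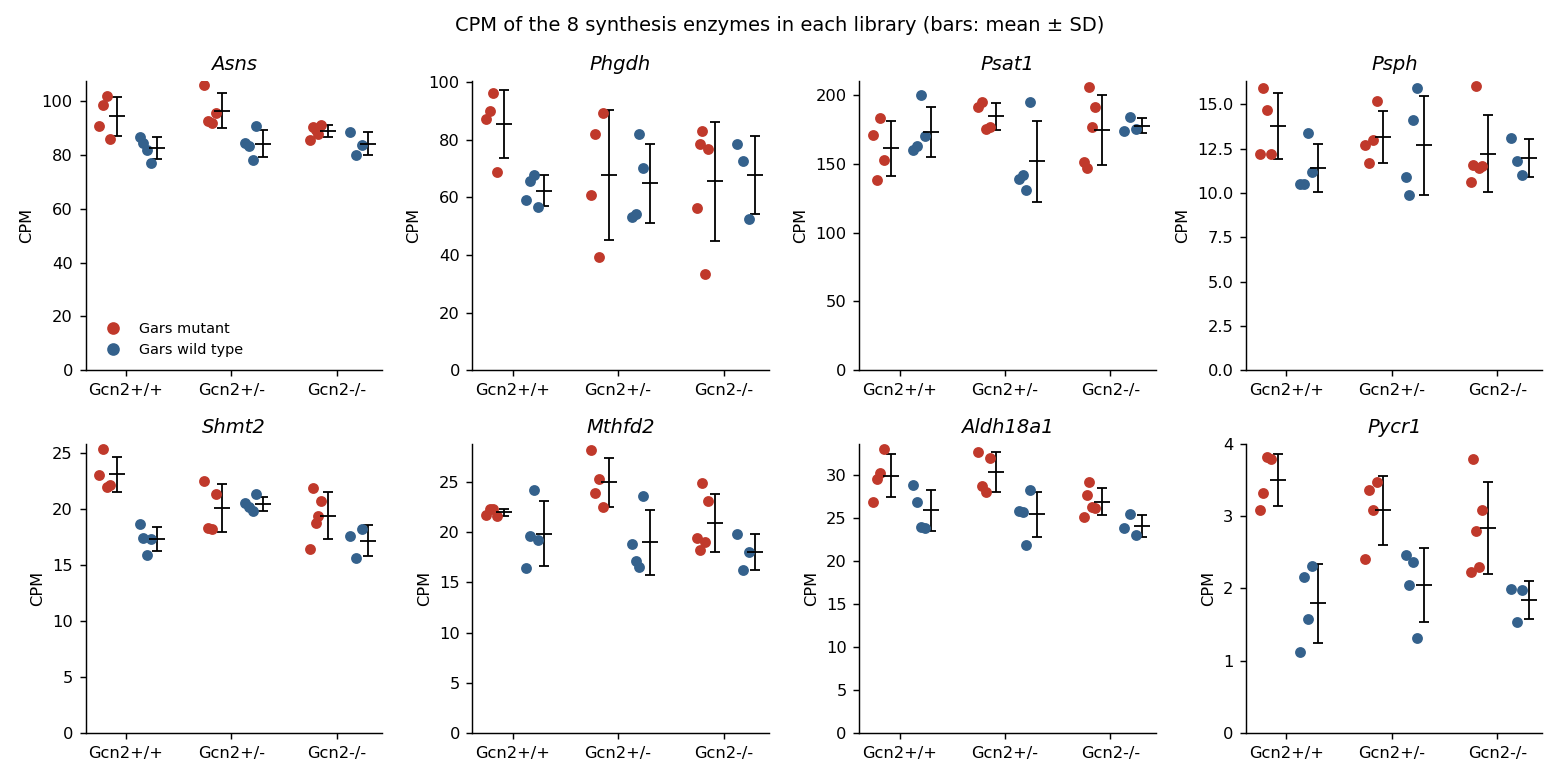
CPM of each of the 8 enzymes (vertical axis, from 0) in every library, by Gcn2 genotype, with Gars mutants in red left of Gars wild-type mice in blue; black bars are the mean ± SD. Shmt2 shows no overlap in Gcn2+/+ mice (21.9 to 25.3 against 15.9 to 18.6 CPM), and Phgdh ranges from 33.4 to 82.9 CPM among the Gcn2-/- Gars mutants.

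In mice with intact Gcn2, Shmt2 rose in Gars mutants, and edgeR called no other member. Shmt2, the mitochondrial serine hydroxymethyltransferase that makes glycine from serine, had 23.0, 25.3, 21.9 and 22.1 CPM in Gcn2+/+ Gars mutants, against 18.6, 17.4, 15.9 and 17.3 CPM in Gcn2+/+ Gars wild-type mice. Every mutant library lay above every wild-type one. The log2 fold change was 0.41 ± 0.09 (SE), or 1.33-fold, with an adjusted p of 0.0453 (edgeR's quasi-likelihood F test, Benjamini-Hochberg over 17409 genes). Genes called at an adjusted p below 0.05 made up 0.632% of all genes tested in this comparison. The 2 mutant libraries with high Schwann cell markers were those at 25.3 and 22.1 CPM. The other 2, at 23.0 and 21.9, had 0.44 and 1.63 mean log2 CPM of these markers, against 0.18 to 0.55 in the wild-type libraries. Over all 24 libraries Shmt2 had a Pearson r of 0.51 with this mean, and 0.12 with group means and sex removed. The part of these markers in the difference was not tested. Without all 5 libraries high in Schwann cell markers the log2 fold change was 0.38 with an adjusted p of 0.247.

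The size of the Shmt2 difference was steadier than its call. Its log2 fold change stayed between 0.37 and 0.48 in 39 alternatives, of which 15 called it and 24 did not. Leaving out any 1 of 16 of the 24 libraries ended the call, at adjusted p from 0.051 to 0.128. These 16 are every Gcn2+/+ Gars mutant, libraries 2, 3 and 4 of the Gcn2+/+ Gars wild-type mice, libraries 3 and 4 of the Gcn2+/- Gars mutants, libraries 1 and 2 of the Gcn2+/- Gars wild-type mice, libraries 3 and 4 of the Gcn2-/- Gars mutants and all 3 Gcn2-/- Gars wild-type mice. Titles begin with a number whose meaning is not given, and these fall into an earlier and a later set. Within the earlier set Shmt2 was 0.49 higher in mutants on the log2 CPM scale (2 mutant libraries against 1 wild-type one), and within the later set 0.41 higher (2 against 3). With the title number as a replicate block Shmt2 was not called (0.48 ± 0.12, adjusted p = 0.0856 in edgeR).

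Pycr1, the mitochondrial reductase of the last step of proline synthesis, had the largest fold difference of the 8 but was not called. It had 3.09, 3.32, 3.82 and 3.79 CPM in Gcn2+/+ Gars mutants, against 1.12, 2.16, 1.58 and 2.31 CPM in Gcn2+/+ Gars wild-type mice. Here too every mutant library was above every wild-type library, at low counts. The log2 fold change was 0.96 ± 0.24, 1.95-fold, with an adjusted p of 0.0597 in edgeR. DESeq2 called it, with an adjusted p of 0.00828. Of 39 alternatives, 3 called it and 36 did not. Within the earlier and later title sets Pycr1 was 1.08 and 0.97 higher in mutants on the log2 CPM scale. With the title number as a replicate block the log2 fold change was smaller, 0.69 ± 0.26, with an adjusted p of 0.197 in edgeR. Over all 24 libraries Pycr1 had a Pearson r of 0.38 with the Schwann cell marker mean, and 0.44 with group means and sex removed. With these markers as a covariate the log2 fold change was 0.75 ± 0.25 (adjusted p = 0.216 in edgeR). The part of these markers in the difference was not tested further.

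Asns makes asparagine from aspartate and glutamine. Its levels were 90.6, 98.7, 102 and 85.8 CPM in Gcn2+/+ Gars mutants, against 86.7, 84.6, 81.9 and 77.0 CPM in Gcn2+/+ Gars wild-type mice. The lowest mutant library lay just under the highest wild-type one, so the groups overlapped. The log2 fold change was 0.20 ± 0.06, 1.15-fold, with an adjusted p of 0.132 in edgeR and 0.0505 in DESeq2. On the deposited TPM, limma called it (0.34, adjusted p = 0.0182), the only call in 39 alternatives. On that scale the median gene was shifted by 0.11 in this comparison, so the difference relative to the median gene is smaller than the printed value.

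The serine pathway gave no call in Gcn2+/+ mice. Phgdh catalyses its first and committed step, Psat1 the transamination that follows, and Psph the final dephosphorylation. Psat1 had 171, 138, 183 and 153 CPM in Gars mutants and 160, 163, 200 and 170 CPM in wild-type mice, with overlapping groups (log2 fold change -0.13 ± 0.12, adjusted p = 0.619 in edgeR). It was the only member with a value below 0 in this comparison. Psph had 12.2, 15.9, 14.7 and 12.2 CPM in Gars mutants and 10.5, 10.5, 13.4 and 11.2 CPM in wild-type mice, and these overlapped as well (0.23 ± 0.16, adjusted p = 0.465 in edgeR). Psph shares 452 identical bases with Cct6a, which is transcribed from the opposite strand at the same place. The kits mark strand, but whether the counting used it is not given in the sources used here, although all 24 Psph values were whole numbers.

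Mthfd2, the mitochondrial enzyme that oxidises methylene-tetrahydrofolate, had 21.7, 22.3, 22.3 and 21.6 CPM in Gcn2+/+ Gars mutants, against 16.4, 19.6, 24.2 and 19.2 CPM in Gcn2+/+ Gars wild-type mice. The mutant libraries were close together and fell inside the wild-type range (0.14 ± 0.13, adjusted p = 0.619 in edgeR). Aldh18a1, which starts proline synthesis from glutamate, had 26.9, 29.6, 30.2 and 33.1 CPM in Gars mutants, against 28.8, 26.9, 24 and 23.9 CPM in wild-type mice. Of the 4 mutant libraries, 3 exceeded all wild-type libraries, and the log2 fold change was 0.20 ± 0.09 with an adjusted p of 0.253 in edgeR. Over the 8 genes the median log2 fold change was 0.22, against 0.01 over all genes tested, and 7 of 8 were above 0. At an unadjusted p below 0.05 there were 4 of 8 (Shmt2, Pycr1, Asns and Aldh18a1), against 17.3% of all genes. All 4 were higher in mutants, and 8.25% of all genes passed that level in this direction. Non-overlapping groups with mutants above were found for 3 of 8 (Phgdh, Shmt2 and Pycr1), against 4.06% of all genes. Because the members were chosen with earlier results known, these counts only describe them. Without the 5 libraries high in Schwann cell markers no member was called by edgeR, and the log2 fold changes were 0.94 for Pycr1 (adjusted p = 0.247), 0.23 for Asns (0.263), 0.15 for Aldh18a1 (0.539), 0.23 for Psph, 0.14 for Mthfd2 and 0.01 for Psat1.

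The deposited value of Phgdh, the first serine enzyme, depended on how reads were shared with copies of the gene. As deposited it had 87.1, 89.8, 96.0 and 68.8 CPM in Gcn2+/+ Gars mutants and 59.0, 65.6, 67.8 and 56.7 CPM in Gcn2+/+ Gars wild-type mice. The lowest mutant library just cleared the highest wild-type one, and the log2 fold change was 0.54 ± 0.26 with an adjusted p of 0.291 in edgeR. Over all 24 libraries Phgdh ranged 2.87-fold, from 33.4 to 96.0 CPM, more than any other member except the low Pycr1. None of its 24 expected counts was whole, while Asns, Psat1, Psph, Shmt2, Mthfd2 and Aldh18a1 were whole in all 24 and Pycr1 in 21.

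A search of Phgdh transcripts against the other transcripts of GENCODE M21 (at least 95% identity over at least 150 bases) found 14 genes, of which 5 are listed in the files. The most abundant of these was Gm5847, also on chromosome 3 (GRCm38, 65613589 to 65615183, plus strand), which matched 1596 bases at 96.2% identity. Gm5847 had 206.2 to 597 expected counts in 10 libraries and at most 4.8 in the other 14. Its highest values, 597 and 548.2, were in library 4 of the Gcn2-/- Gars mutants and library 3 of the Gcn2+/- Gars mutants, and the next highest was 399.6. Those same libraries had the lowest Phgdh, at 33.4 and 39.3 CPM. The 5 copies together took 41.7% and 42.6% of the summed count there, 14.4% to 20.2% in the other 8 libraries with Gm5847 above 200, and at most 0.873% in the remaining 14. The sum of Phgdh and its 5 copies was whole in all 24 libraries, within 0.03.

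Summed with its copies, Phgdh ranged 1.67-fold over the libraries, from 57.5 to 96.0 CPM. The sum was 87.1, 90.4, 96.0 and 82.9 CPM in Gcn2+/+ Gars mutants, against 68.9, 65.5, 67.7 and 71.7 CPM in Gcn2+/+ Gars wild-type mice. The groups did not overlap, and the lowest mutant library stood further above the highest wild-type one than in the deposited Phgdh values. The log2 fold change was 0.40 ± 0.11 (95% interval 0.18 to 0.63), with an adjusted p of 0.0812 in edgeR, so it was still not called. Without the 5 libraries high in Schwann cell markers it was 0.44 ± 0.12 with an adjusted p of 0.208. This sum was chosen after seeing the data. The 11 astrocyte markers summed to 8270 to 9330 CPM in Gcn2+/+ Gars mutants and 7300 to 8430 CPM in wild-type mice. None of them was called, with a median log2 fold change of 0.05. With group means and sex removed, their mean had a Pearson r of 0.58 with deposited Phgdh, 0.64 with Psph and 0.50 with Psat1. Their part in these values was not tested. Libraries with Gm5847 above 200 were spread over the groups: 1 of 4 Gars mutants and 2 of 4 wild-type mice with Gcn2+/+, 2 of 4 and 2 of 4 with Gcn2+/-, and 2 of 5 and 1 of 3 with Gcn2-/-.

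**Figure D2:**
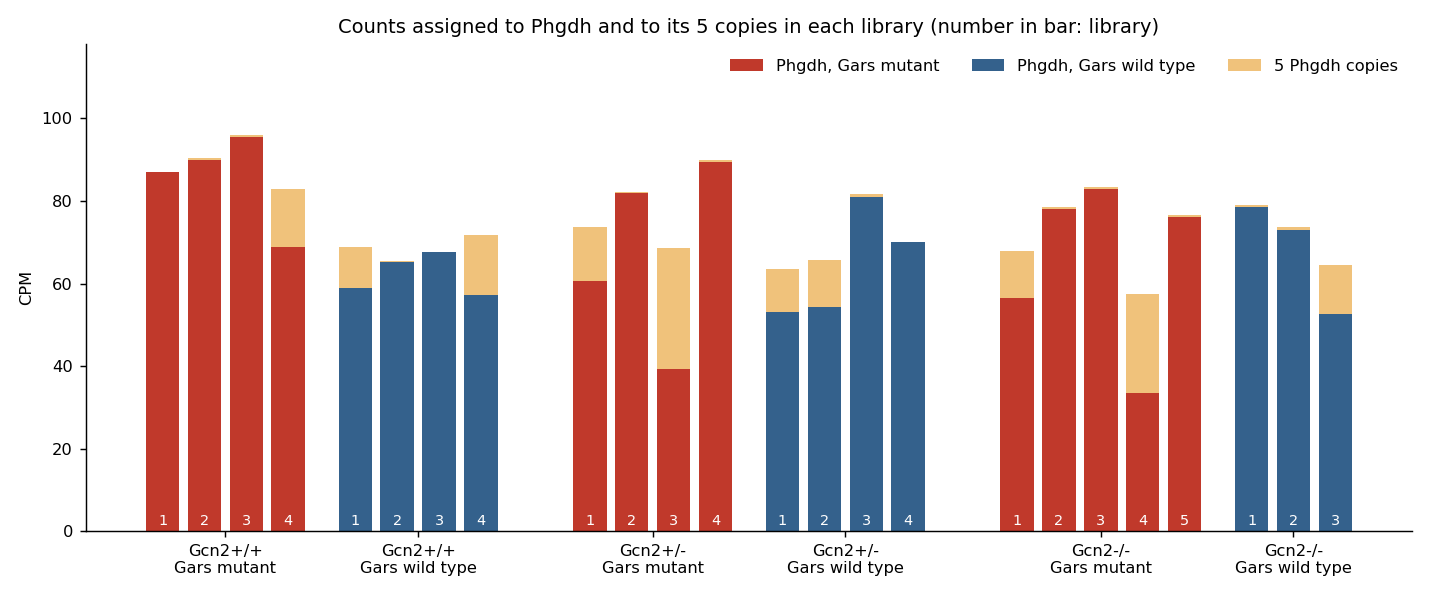
CPM assigned to Phgdh (red, Gars mutants; blue, Gars wild-type mice) and to its 5 copies (tan, stacked on top) in each of the 24 libraries, with the library number in each bar. A visible tan share is seen in 10 libraries, and in library 4 of the Gcn2-/- Gars mutants and library 3 of the Gcn2+/- Gars mutants it is 41.7% and 42.6% of the bar.

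With 1 intact Gcn2 copy no member was called by edgeR, DESeq2 or limma, in a comparison that called 0.178% of all genes. At an unadjusted p below 0.05 there were 5 of 8 (Asns, Psat1, Mthfd2, Aldh18a1 and Pycr1), against 14.7% of all genes. All 5 were higher in mutants, against 7.97% of all genes in that direction. The median over the 8 was 0.23, against -0.01 over all genes. Asns had 106, 92.5, 91.9 and 95.5 CPM in Gcn2+/- Gars mutants, against 84.4, 83.4, 78.2 and 90.6 CPM in Gcn2+/- Gars wild-type mice. These groups did not overlap, which held for 1 of the 8 genes and, with mutants above, for 3.78% of all genes. The log2 fold change of Asns was 0.20 ± 0.06 with an adjusted p of 0.203 in edgeR, the same size as with Gcn2+/+. Mthfd2 had 28.2, 23.9, 25.3 and 22.5 CPM in Gars mutants, against 18.8, 17.1, 16.5 and 23.6 CPM in wild-type mice (0.39 ± 0.13, adjusted p = 0.207 in edgeR). The highest wild-type library reached into the mutant range.

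Neither proline enzyme nor Shmt2 was called with Gcn2+/-. Aldh18a1 had 32.7, 28.7, 28.1 and 32.0 CPM in Gars mutants, against 25.8, 25.7, 21.9 and 28.3 CPM in wild-type mice (0.25 ± 0.08, adjusted p = 0.224 in edgeR), with 1 wild-type library in the mutant range. Pycr1 had 2.40, 3.36, 3.08 and 3.47 CPM in Gars mutants, against 2.46, 2.05, 2.36 and 1.32 CPM in wild-type mice (0.58 ± 0.24, adjusted p = 0.284 in edgeR). Only the lowest mutant library lay below a wild-type one. Shmt2 had 22.5, 18.3, 18.2 and 21.3 CPM in Gars mutants and 20.5, 20.1, 19.8 and 21.3 CPM in wild-type mice. The wild-type range lay inside the mutant range, and the log2 fold change was -0.03 ± 0.09 (95% interval -0.21 to 0.15). Libraries 1 and 3 of these wild-type mice, at 20.5 and 19.8 CPM, are among those with high Schwann cell markers. Without the 5 libraries the value was -0.08.

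Psat1, Psph and Phgdh overlapped between the Gcn2+/- groups. Psat1 had 191, 195, 175 and 177 CPM in Gars mutants and 139, 142, 131 and 195 CPM in wild-type mice (0.27 ± 0.12, adjusted p = 0.309 in edgeR). Of its wild-type libraries, 3 lay below all mutants and the other was level with the highest. Within groups Psat1 was lower where Schwann and meningeal markers were higher (Pearson r of -0.57 and -0.62 over 24 libraries, group means and sex removed, a description with no test). The 2 wild-type libraries high in these markers were those at 139 and 131 CPM. Psph had 12.7, 11.7, 13.0 and 15.2 CPM in Gars mutants and 10.9, 9.86, 14.1 and 15.9 CPM in wild-type mice (0.03 ± 0.15). Phgdh with its copies averaged 78.6 ± 9.40 CPM in Gars mutants and 70.3 ± 8.10 CPM in wild-type mice (SD, n = 4 each, log2 fold change 0.17 ± 0.10, adjusted p = 0.447 in edgeR). Without the 5 libraries the log2 fold changes with Gcn2+/- were 0.80 for Pycr1, 0.35 for Mthfd2, 0.17 for Psat1, 0.15 for Asns, 0.14 for Aldh18a1, -0.04 for Psph and 0.12 for Phgdh with its copies, none of them called.

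Without Gcn2 no member was called by edgeR, DESeq2 or limma, where edgeR called 0.0115% of all genes. Of the 8, 1 (Pycr1) had an unadjusted p below 0.05, against 4.35% of all genes, or 2.44% of all genes with mutants higher. The median over the 8 genes was 0.12, against 0.00 over all genes. Pycr1 had 2.23, 3.79, 2.79, 2.30 and 3.09 CPM in Gcn2-/- Gars mutants, against 1.99, 1.53 and 1.98 CPM in Gcn2-/- Gars wild-type mice. All 5 mutant libraries were above all 3 wild-type ones, and this was the only member of which that held, against 2.11% of all genes. The log2 fold change was 0.63 ± 0.24 (95% interval 0.12 to 1.14), with an adjusted p of 0.941 in edgeR. None of the 5 libraries with high Schwann cell markers is in these groups.

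Asns had 85.6, 90.4, 89.2, 87.6 and 91.0 CPM in Gcn2-/- Gars mutants, against 88.6, 80.1 and 83.5 CPM in Gcn2-/- Gars wild-type mice (0.08 ± 0.06, adjusted p = 0.941 in edgeR). The highest wild-type library stood within the mutant range. Shmt2 had 16.4, 21.8, 18.7, 19.3 and 20.7 CPM in Gars mutants, against 17.6, 15.6 and 18.2 CPM in wild-type mice (0.18 ± 0.09, adjusted p = 0.941 in edgeR). Of the 5 mutant libraries, 4 exceeded the wild-type range and 1 fell inside it. Aldh18a1 ran from 25.1 to 29.2 CPM in Gars mutants and from 23.0 to 25.5 CPM in wild-type mice (0.17 ± 0.09), and Mthfd2 from 18.2 to 24.9 and from 16.2 to 19.8 CPM (0.22 ± 0.13). Psat1 (-0.01 ± 0.12), Psph (0.06 ± 0.16) and Phgdh with its copies (0.00 ± 0.11) were centred near 0. All 3 Gcn2-/- Gars wild-type libraries belong to the earlier title set, so in that genotype the sets can be compared only within the earlier one (2 mutant libraries against 3). There Pycr1 was 0.67, Mthfd2 0.42, Shmt2 0.20, Aldh18a1 0.20 and Asns 0.10 higher in mutants on the log2 CPM scale. Psat1 was 0.16, Psph 0.19 and deposited Phgdh 0.25 higher there, each above its pooled value (-0.10 for deposited Phgdh). The part of the title sets in these differences was not tested.

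**Figure D3:**
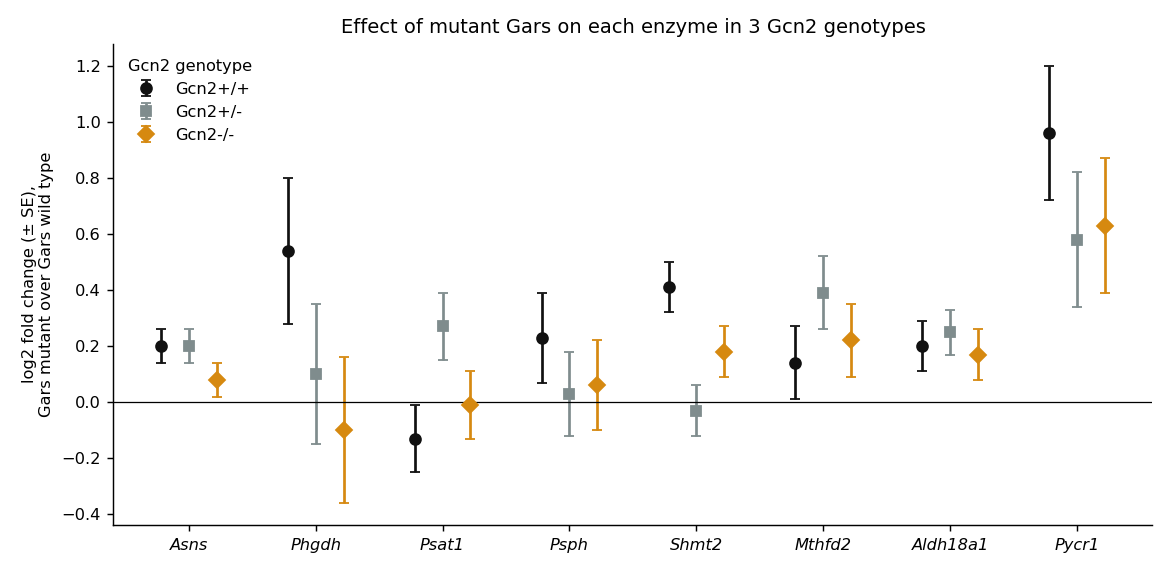
Log2 fold change (points) with its standard error (bars) of each enzyme in Gars mutants over Gars wild-type mice, for Gcn2+/+ (circles), Gcn2+/- (squares) and Gcn2-/- (diamonds). Pycr1 is above 0 in all 3 genotypes (0.96, 0.58 and 0.63), and Shmt2 is 0.41, -0.03 and 0.18.

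Whether these effects depended on Gcn2 was tested directly as a difference of log2 fold changes. The difference between Gcn2-/- and Gcn2+/+ mice was called for no member by edgeR, DESeq2 or limma, with 0.0115% of all genes called by edgeR. No member reached an unadjusted p below 0.05, against 4.93% of all genes. The difference was -0.23 ± 0.13 for Shmt2 (95% interval -0.50 to 0.05), -0.33 ± 0.34 for Pycr1 (-1.05 to 0.39) and -0.13 ± 0.09 for Asns (-0.32 to 0.07). Each interval holds 0 and also holds a loss as large as the whole effect in Gcn2+/+ mice, so neither size could be told from the other at this number of libraries. For Phgdh with its copies the difference was -0.41 ± 0.16 (-0.73 to -0.08), with an unadjusted p of 0.0169 and an adjusted p of 0.938 in edgeR. Without the 5 libraries these differences were -0.20 for Shmt2, -0.30 for Pycr1, -0.16 for Asns and -0.45 for Phgdh with its copies. The median over the 8 genes was -0.15, against 0.00 over all genes.

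Between Gcn2+/- and Gcn2+/+ mice the difference was again called for no member by edgeR, while 3.70% of all genes were called. That share was unstable: at most 3 genes were called when any 1 of 10 libraries was left out (libraries 2, 3 and 4 of the Gcn2+/+ Gars mutants, of the Gcn2+/+ Gars wild-type mice and of the Gcn2+/- Gars mutants, and library 3 of the Gcn2+/- Gars wild-type mice), and 1784 without library 1 of the Gcn2+/+ Gars wild-type mice. Of the 8, 2 (Shmt2 and Psat1) had an unadjusted p below 0.05, against 23.4% of all genes. For Shmt2 the effects were -0.03 with Gcn2+/- and 0.41 with Gcn2+/+, a difference of -0.44 ± 0.12 (95% interval -0.70 to -0.18) with an adjusted p of 0.0523 in edgeR. DESeq2 (adjusted p = 0.0206) and limma on TPM (0.0446) called it. Of 38 alternatives, 7 called it and 31 did not. On TPM the median gene also moved downward in this difference. For Psat1 the effects were 0.27 and -0.13, a difference of 0.41 ± 0.17 with an adjusted p of 0.15. All 5 libraries with high Schwann cell markers enter this contrast, 2 as Gcn2+/+ Gars mutants and 2 as Gcn2+/- Gars wild-type mice, and 9 of the 12 Schwann cell markers were themselves called in it, all downward. Without these 5 libraries the Psat1 difference was 0.16 and the Shmt2 difference was -0.45 with an adjusted p of 0.281.

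**Figure D4:**
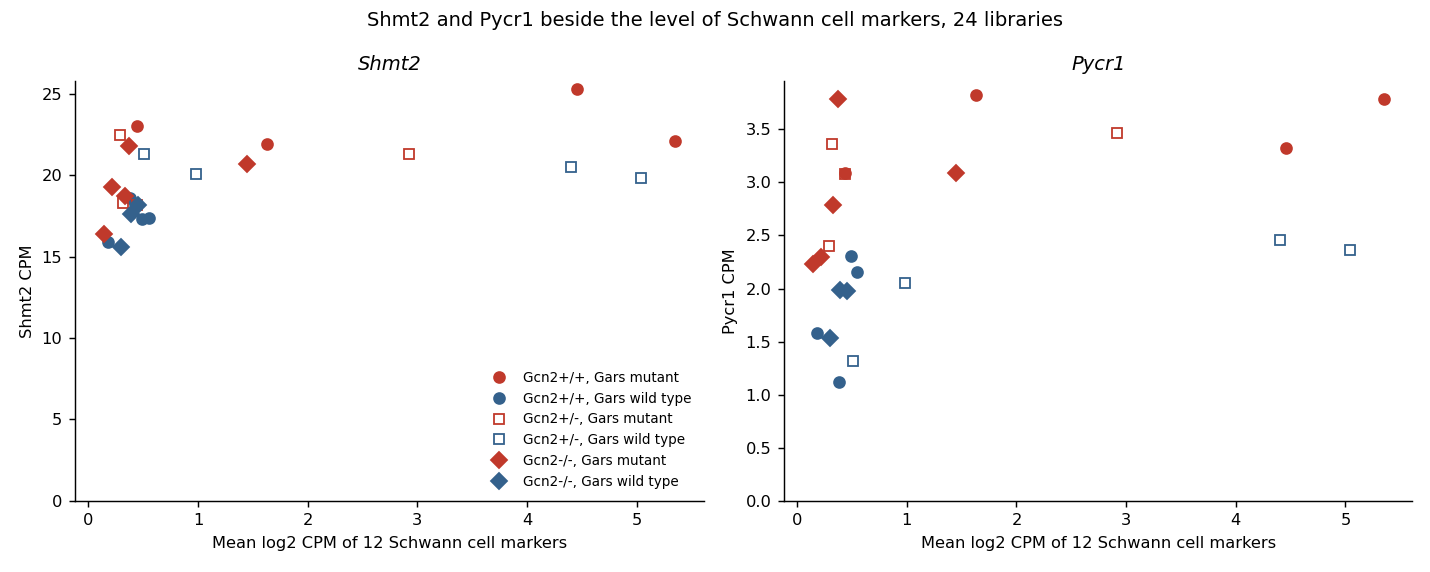
CPM of Shmt2 (left) and Pycr1 (right) in the 24 libraries against the mean log2 CPM of 12 Schwann cell markers, with Gars mutants in red and Gars wild-type mice in blue, and circles, squares and diamonds for Gcn2+/+, Gcn2+/- and Gcn2-/-. The 5 libraries above 2 on the horizontal axis lie within the range of the rest for both genes, except 1 Gcn2+/+ Gars mutant at 25.3 CPM of Shmt2.

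Loss of Gcn2 itself, at the same Gars genotype, was followed by no called change in any member with edgeR, DESeq2 or limma. In Gars mutants, Gcn2-/- against Gcn2+/+ called 0.494% of all genes, and 1 of 8 members (Shmt2) had an unadjusted p below 0.05, against 10.0% of all genes. Shmt2 averaged 19.4 ± 2.09 CPM in Gcn2-/- Gars mutants and 23.1 ± 1.54 CPM in Gcn2+/+ Gars mutants (SD, n = 5 and 4), a log2 fold change of -0.25 ± 0.08 with an adjusted p of 0.305 in edgeR. It was -0.21 (adjusted p = 0.799) without the 5 libraries. In this comparison 3 of 6 motor neuron markers were called higher by edgeR. In Gars wild-type mice, Gcn2-/- against Gcn2+/+ called 0.0287% of all genes, and 0 of 8 members had an unadjusted p below 0.05, against 3.68% of all genes. There the 8 log2 fold changes lay between -0.15 and 0.19. Asns, for example, averaged 84.0 ± 4.26 CPM in Gcn2-/- Gars wild-type mice and 82.5 ± 4.21 CPM in Gcn2+/+ Gars wild-type mice (n = 3 and 4), with a 95% interval of the log2 fold change from -0.11 to 0.17. For the loss of 1 copy, edgeR called no gene in either Gars genotype (0% of all genes), while DESeq2 called 16 genes in Gars mutants and 459 in Gars wild-type mice and limma on TPM 3 and 0. Without library 1 of the Gcn2+/+ Gars wild-type mice, edgeR called 664 genes in Gars wild-type mice. None of these calls by DESeq2 or limma was a member. In Gars mutants 1 of 8 (Shmt2, -0.20 ± 0.09) had an unadjusted p below 0.05, against 10.9% of all genes, and in Gars wild-type mice 1 of 8 (Shmt2, 0.24 ± 0.09), against 17.2%. These values were -0.19 and 0.26 without the 5 libraries.

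Ranked by mean CPM over the 6 groups, the 3 Gars mutant groups took the first 3 places for Asns, Mthfd2, Aldh18a1 and Pycr1. How many of all genes have such an order was not computed, so the ranking is only a description. Asns was highest in Gcn2+/- Gars mutants (96.4 ± 6.44 CPM), then Gcn2+/+ Gars mutants (94.4 ± 7.53) and Gcn2-/- Gars mutants (88.8 ± 2.2), and last in Gcn2+/+ Gars wild-type mice (82.5 ± 4.21). Each neighbouring pair in this order overlapped. The same held for every neighbouring pair of Phgdh, Psat1, Psph, Aldh18a1 and Pycr1. Shmt2 was highest in Gcn2+/+ Gars mutants, with no overlap to the next group (Gcn2+/- Gars wild-type mice, 20.4 ± 0.632 CPM). That pair differs in both genotypes, and the share of all genes without overlap in it was not computed. Mthfd2 was highest in Gcn2+/- Gars mutants (25.0 ± 2.44 CPM), with no overlap to the next (Gcn2+/+ Gars mutants, 22 ± 0.351). Between these 2 groups, 2.98% of all genes lay wholly above in the same direction. Sex showed no called effect on any member, with 14 genes called in all.

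Other enzymes of the same pathways were given from 3 lists. Of 24 tested genes of serine, glycine and folate metabolism outside the 8, none was called in the Gars effect at any Gcn2 genotype, with 2, 3 and 1 at an unadjusted p below 0.05 for Gcn2+/+, Gcn2+/- and Gcn2-/-. Over all genes tested those levels were passed by 17.3%, 14.7% and 4.35%, and 0.632%, 0.178% and 0.0115% were called, which holds for the next 2 lists as well. The median log2 fold change of the 24 was 0.01, -0.05 and 0.06. With Gcn2+/+, the first genes by p within this list included Dld, a subunit shared by glycine cleavage and other dehydrogenase complexes (-0.21 ± 0.07, adjusted p = 0.153). Gcsh (-0.43 ± 0.25) and Gldc (0.35 ± 0.21) were also named by this order, which does not mean that their p was small. Of 13 tested genes of proline, glutamate and arginine metabolism, none was called in these 3 effects, with 1, 1 and 0 at that level and medians of -0.08, -0.06 and -0.03. In this list Glud1 was at -0.08 ± 0.06, Arg2 at -0.42 ± 0.34 and Got1 at -0.06 ± 0.06 with Gcn2+/+. Of 10 tested enzymes of asparagine and other amino acids, none was called, with 2, 4 and 0 at that level and medians of -0.06, 0.19 and 0.02. Aspg, an asparaginase, breaks down asparagine, the product of Asns. It had the smallest p (0.79 ± 0.26, adjusted p = 0.137), then Gpt (-0.24 ± 0.09), Adi1 (-0.32 ± 0.20) and Bcat1 (-0.09 ± 0.07). These p-values are from edgeR.

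In the difference of Gars effects between Gcn2+/- and Gcn2+/+ mice, Dld of the first list was called by edgeR. It had a log2 fold change of 0.19 with Gcn2+/- and -0.21 with Gcn2+/+, a difference of 0.40 ± 0.10 with an adjusted p of 0.0406. The call did not hold in 22 of 38 alternatives, with values of 0.28 to 0.47. With Schwann cell markers as a covariate the difference was 0.38 (adjusted p = 0.146), and without the 5 libraries 0.38 (0.275). Leaving out any 1 Gcn2+/+ Gars mutant, library 2, 3 or 4 of the Gcn2+/+ Gars wild-type mice, of the Gcn2+/- Gars mutants or of the Gcn2+/- Gars wild-type mice, or library 4 of the Gcn2-/- Gars mutants also ended it, at adjusted p from 0.0504 to 0.0983. In this contrast 9 of 12 Schwann cell markers were called too.

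The genes whose pattern over the 24 libraries was most like that of a member were listed for Asns and Shmt2, by Pearson r of log2 CPM, as a description. For Asns they were Cars (r = 0.90), which encodes cysteinyl-tRNA synthetase, Krba1 (0.83) and Dtx3 (0.82). Krba1 lies on chromosome 6, which also holds Gars, Asns and Mthfd2, at 40.7 Mb from Asns. Asns is 47.4 Mb and Mthfd2 28.3 Mb from Gars. Whether strain sequence linked to the mutant Gars allele has a part in their values was not tested. For Shmt2 they were Nptxr (0.84), Tenm3 (0.84) and Pcgf2 (0.83). Chosen after seeing the values, the list for Aldh18a1 was led by Mars (0.78), Cars (0.77) and Igsf3 (0.72), and also held Atf4 (0.70). Mars and Cars encode tRNA synthetases. With group means and sex removed, r was 0.50 for Mars, 0.57 for Cars, 0.55 for Igsf3 and 0.47 for Atf4. Asns and Aldh18a1 were the most alike pair among the 8 (r = 0.75, and 0.49 within groups).

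For Phgdh and Psph the most alike genes lay mainly on the same chromosome, a pattern noticed after seeing the values. Of the 20 genes most like deposited Phgdh, 13 were on chromosome 3, which holds 4.71% of tested genes, at 3.1 to 35.2 Mb from Phgdh. They were led by Tpm3 (r = 0.89), Scnm1 (0.88) and Rps3a1 (0.88), and the other 7 were all on chromosome 4. With group means and sex removed 14 of 20 were on chromosome 3. When Phgdh was summed with its copies, 3 of 20 were on chromosome 3. Of the 20 genes most like Psph, 11 were on chromosome 5, which holds 6.17% of tested genes, at 2.2 to 19.7 Mb, led by Acad10 (0.81), with 6 of 20 within groups. For the other 6 members the number on the member's own chromosome was 1 to 4 of 20, although for Aldh18a1 it was 3 of 20 overall and 10 of 20 within groups. The 4 of 20 were those of Asns and Psat1, whose chromosomes hold 4.9% and 3.11% of tested genes. A further 7 of the 20 for Psat1 were on chromosome 18, and 5 of the 20 for Psph on chromosome 13. Which parental strain's sequence each library carried at these places was not analysed here.

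**Figure D5:**
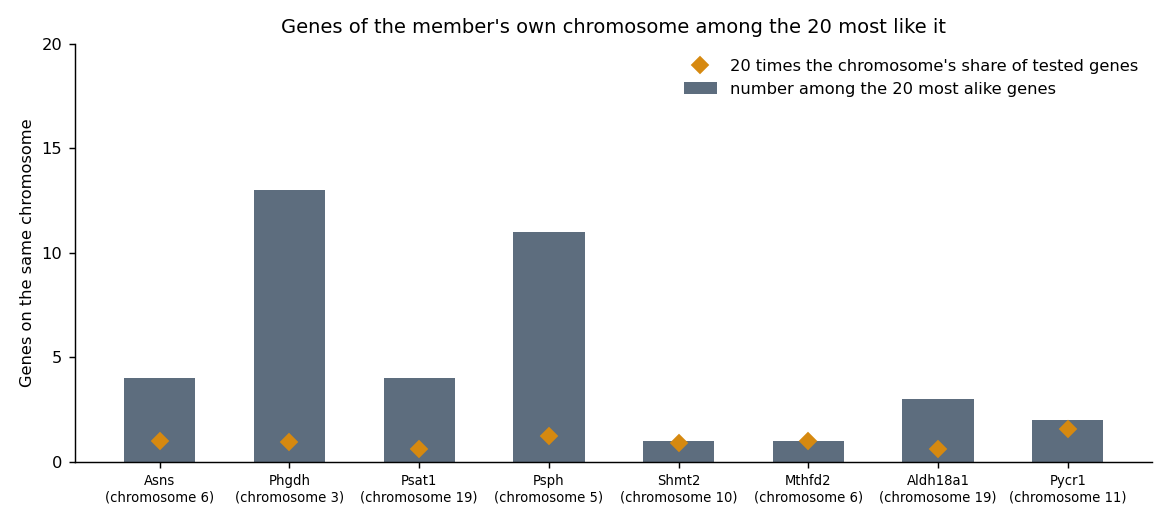
Number of genes on the member's own chromosome among the 20 tested genes most like it over 24 libraries (bars, vertical axis from 0 to 20), with 20 times that chromosome's share of all tested genes as diamonds. Phgdh (13) and Psph (11) stand above the other 6 members (1 to 4).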

How the data were processed

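Poly(A) RNA of 24 whole spinal cords was sequenced as 75 bp read pairs from stranded kits, per the labels' protocols. The deposited values are RSEM expected counts and TPM per gene, which the authors made with Bowtie2 2.2.0 alignment and RSEM 1.2.12, according to the submitters' processing notes. Build and annotation: not given in the sources used here. Expected counts were rounded to whole numbers for edgeR and DESeq2. Of the counts, 0.26% lay on genes without a GENCODE M21 identifier, which was used for symbols and positions. Library totals of 19.7 to 32.4 M counts set the precision. Within groups no libraries were duplicates: the mean chi-square per gene between replicates ran from 12.98 to 54.56. Libraries of different groups were not compared in this way.

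Tests used edgeR 4.0.16 (R 4.3.3): quasi-likelihood F tests, TMM scaling, the edgeR filter on low counts by group, 6 genotype groups and sex in one fit over all 24 libraries, Benjamini-Hochberg adjustment over 17409 genes, and a call at an adjusted p below 0.05. The fit was tested on simulated data with 200 changed genes. Alternatives were DESeq2 1.42.0, limma 3.58.1 on log2(TPM + 0.5), other scalings, filters and covariates, the title number as a replicate block, and each library left out. Leaving out the 5 libraries with high Schwann cell markers, and summing Phgdh with its copies, were chosen after seeing the data. Copies were searched with blastn 2.17.0. The members and lists were chosen with earlier results of these data known. Named genes are the 8 members, the genes called in each enzyme list with up to 4 of smallest p, Eif2ak4, and the 3 genes most like Asns and Shmt2; others are named as chosen after their values were seen, including the copies of Phgdh. Some genes of the enzyme lists that this rule names are not reported here.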

Additional observations from a re-analysis of the deposited data

Results flagged for a closer look

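Psph in library 3 of the Gcn2-/- Gars mutants stood apart from the other 4 libraries of its group. Its 16 CPM lay above 10.6, 11.6, 11.4 and 11.5 CPM, and the gap to its nearest neighbour was 0.815 of the group's range. It was the only such value in 40 sets of one member in one group, and chance gives about 1 in 20 sets.

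In Dld, an enzyme outside the 8, the effect of mutant Gars differed between Gcn2 genotypes by a test of the difference itself. It differed by 0.40 ± 0.10 on the log2 scale between Gcn2+/- and Gcn2+/+ mice (adjusted p = 0.0406, edgeR's quasi-likelihood test). The call did not hold in 22 of 38 alternatives, among them the fit with Schwann cell markers as a covariate (adjusted p = 0.146) and the fit without the 5 libraries high in these markers (0.275).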

How the results depend on the processing

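In 39 alternatives, members called were recounted in each comparison, and the counts moved in 2 comparisons and kept to the reported number in the other 7. For the Gars effect with Gcn2+/+ the reported count is 1. It was 0 with no filter on low genes, with only the groups of the comparison, with the 4 genotypes of the series design, with Schwann or meningeal markers as a covariate, without libraries 2 and 4 of the Gcn2+/+ Gars mutants, and without the 5 libraries with high Schwann cell markers. It was 2 with no sex term (Shmt2 and Pycr1), with DESeq2 (Shmt2 and Pycr1) and with limma on TPM (Asns and Shmt2), and 0 to 2 when single libraries were left out. For the difference between Gcn2+/- and Gcn2+/+ the reported count is 0. It was 1 with a mean CPM of at least 1, with no sex term, with DESeq2 and with limma on TPM (Shmt2 each time), 1 with title numbers in 2 sets (Psat1, adjusted p = 0.0499), and 0 to 1 when single libraries were left out. The cause of these changes was not tested, beyond the smaller number of libraries where some were left out.

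No called value changed sign. Of 2776 single values, 134 changed sign without being called. The adjusted p of Shmt2 ran from 0.00409 to 0.358 and that of Pycr1 from 0.00828 to 0.451. With the title number as a replicate block the count for Gcn2+/+ was 0 and Shmt2 was 0.48 with an adjusted p of 0.0856. The numbers were not taken as pairs: same-numbered libraries of different groups deviated together with a median r of 0.18 (-0.08 to 0.41 over 32 pairs, 23 of them over 0.1), against -0.02 for different numbers (47 of 207 over 0.1), and 10 of 21 libraries matched their own number best. On TPM with limma the median gene moved by -0.16 in the difference between Gcn2+/- and Gcn2+/+. Depth limits Pycr1 most, with 26 expected counts in its lowest library.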
